A study of Mus musculus with 8 samples.

Results

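The thoracic aorta of mice was examined for 10 genes of the elastic fibre, taken as a list of symbols for proteins that form and crosslink the fibre: Eln, Fbln5, Efemp2, Fbn1, Mfap2, Mfap4, Mfap5, Emilin1, Lox and Loxl1. All 10 were among the 23993 genes of the table, and all 10 passed the filter on low values that left 12107 genes for testing. Male C57BL/6 mice were examined when 24 weeks old, and 8 RNA libraries were made from their thoracic aortas. Tsc1 knockout mice (Tsc1fl/fl, Myh11-CreERT2, mT/mG; n = 4) were compared with control mice (Tsc1+/+, Myh11-CreERT2, mT/mG; n = 4). Both groups carried the tamoxifen-inducible Cre, driven by the smooth muscle myosin gene Myh11, and the mT/mG fluorescent reporter. Both were given tamoxifen at 1.5 weeks, so the Tsc1 deletion is limited to cells that expressed Myh11 at that time and their descendants. The labels name smooth muscle cells, but the protocol describes crushed whole aortas and no sorting. The labels do not say whether animals were pooled or whether the 4 libraries of a group are 4 animals, so the p-values speak only of how these samples vary, and that variation may be technical.

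Elastic fibres give the aortic wall its recoil. Smooth muscle cells secrete tropoelastin, which is deposited on a scaffold of fibrillin microfibrils; fibulins bring it together with lysyl oxidases, and these enzymes oxidise its lysines so that the chains become crosslinked. Most aortic elastin is laid down around birth and in early growth and turns over slowly, so transcript levels in the adult do not measure the elastin held in the wall.

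Promoter sequences were found for 5 of the 10 genes in the RefSeq table of GRCm38.p6 (Fbn1, Fbln5, Efemp2, Mfap2 and Emilin1), in 9 windows from 250 bases before to 50 bases after a transcript start. Those of Fbn1, which was lower in the knockout with little spread between libraries, and of Fbln5, which did not pass the test, are shown 5′ to 3′ on the gene's strand, to set a gene that fell beside one that did not. The windows are chr2:125506389-125506688 (minus strand) for Fbn1 and chr12:101819070-101819369 (minus strand, the upstream one of 2 starts) for Fbln5, and capitals mark matches to the GC box GGGCGG on either strand.
Fbn1: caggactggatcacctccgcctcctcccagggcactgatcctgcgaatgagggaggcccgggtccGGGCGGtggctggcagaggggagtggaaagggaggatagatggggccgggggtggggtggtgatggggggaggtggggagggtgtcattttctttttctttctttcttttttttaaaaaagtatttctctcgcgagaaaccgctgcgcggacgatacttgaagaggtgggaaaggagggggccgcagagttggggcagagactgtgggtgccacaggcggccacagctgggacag
Fbln5: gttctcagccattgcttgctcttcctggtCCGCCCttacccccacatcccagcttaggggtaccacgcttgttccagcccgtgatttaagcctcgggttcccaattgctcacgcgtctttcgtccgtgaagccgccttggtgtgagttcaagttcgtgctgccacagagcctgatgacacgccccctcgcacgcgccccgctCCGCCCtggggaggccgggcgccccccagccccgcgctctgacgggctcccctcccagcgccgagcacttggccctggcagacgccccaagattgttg
A GC box was in 6 of the 9 windows, against 35.7% of all 32851 promoter windows of the same length. By gene it was in 4 of the 5, some of which have more than 1 window, and no share by gene was taken over all promoters. The Efemp2 windows at 5474440 to 5474739 and at 5474485 to 5474784 overlap, so GC boxes they share were counted in both. The 9 windows had a GC content of 48.7% to 78.3%, against a median of 52.7% over all windows. CAGACA, searched on both strands, was in 3 of the 9 windows, 1 each of Emilin1, Fbln5 and Mfap2, and in 21.0% of all windows. TGANTCA (7.81% of all windows), CACGTG (7.15%), TATAAA (13.6%) and the CArG box, the element known from smooth muscle genes (1.63%), were in none of the 9. The windows shown held no match to any other motif searched. A match describes letters of a window and not a bound site.

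Levels are FPKM, fragments scaled by transcript length and by the size of the library. Differences are knockout minus control on the log2(FPKM + 1) scale with the standard error (SE), and adjusted p is that of limma with Benjamini-Hochberg adjustment over all 12107 genes, called when under 0.05. Means are given ± SD with n = 4 per group. Tsc1 itself had 2.99, 3.58, 3.37 and 3.71 FPKM in knockouts 1 to 4, against 4.03, 4.82, 4.95 and 6.32 FPKM in controls 1 to 4, without overlap (log2 difference -0.44, SE 0.12, limma adjusted p = 0.0190). That call was lost within odd-numbered and within even-numbered libraries alone. The files hold no counts and the absolute depth is unknown; relative to control 1 it was 0.758 to 1.32 in knockouts and 1 to 2.46 in controls, as read from values under 0.3 FPKM. Controls 1 to 3 stood apart in their FPKM sums, at 593264 to 937271, against 453564 to 467703 in knockouts and 483615 in control 4; without small RNA rows the sums were 451978 to 466794 in knockouts and 481972 to 490074 in controls. The first principal component (44.8% of the variance) separated the genotypes, and the second (16.6%) separated libraries 1 and 3 from libraries 2 and 4 in both. Smooth muscle markers were abundant, with sums over 9 genes of 11475 to 15463 FPKM in knockouts and 17620 to 18115 FPKM in controls.

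In the knockout aortas 6 of the 10 genes fell, 0 rose and 4 did not pass the test. Eln stood at 37.0% of the control mean, Mfap5 at 41.5%, Fbn1 at 65.5% and Mfap4 at 73.8%, while Efemp2 (85.8%) and Emilin1 (79.7%) passed narrowly. Lox (61.6%) and Loxl1 (88.2%), the crosslinking enzymes, did not pass, and neither did Fbln5 (115%) and Mfap2 (158%). Among all tested genes 32.2% were called, 15% as lower and 17.1% as higher. At an unadjusted limma p under 0.05 there were 6 members lower and 1, Mfap2, higher, against 20.1% of all tested genes lower and 23.1% higher. The median log2 difference of the 10 genes was -0.38, against 0.01 over all tested genes. In 5 of the 10 every knockout library lay below every control library, as did 15.6% of all tested genes. In RNA of a whole vessel, fewer cells of a type and less RNA per cell cannot be told apart.

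**Figure D1:**
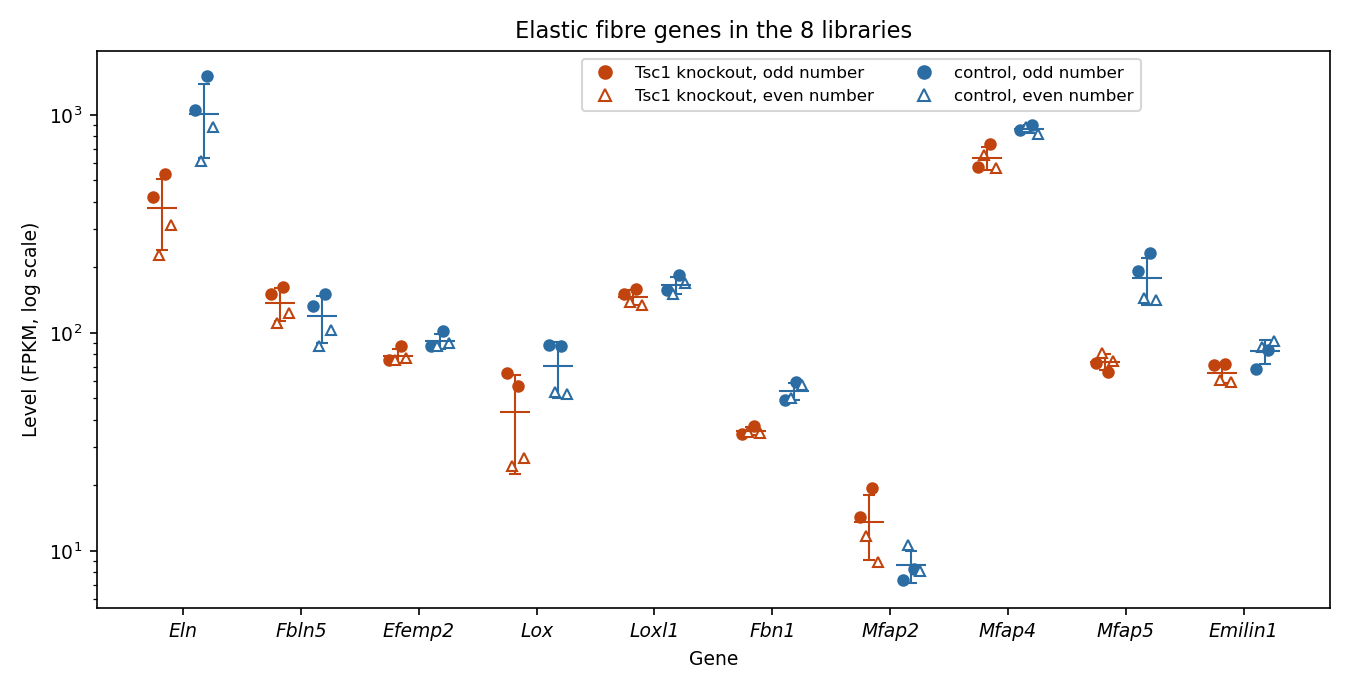
Level of each gene in FPKM (log axis) in the 4 Tsc1 knockout libraries (orange, left) and the 4 control libraries (blue, right). Filled circles are libraries 1 and 3, open triangles are libraries 2 and 4, and bars are the mean ± SD of 4. Eln, Efemp2, Fbn1, Mfap4 and Mfap5 do not overlap between the groups, and in Eln, Fbln5 and Lox the circles lie above the triangles in both groups.

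Eln encodes tropoelastin, the monomer of the elastic core (ENSMUSG00000029675.12; mm10 chromosome 5, 134702593 to 134747323, minus strand; exons of Gm30003 overlap it on the other strand). It had 419, 228, 538 and 312 FPKM in knockouts 1 to 4, against 1049.9, 615, 1506 and 876 FPKM in controls 1 to 4. The highest knockout lay below the lowest control, and within each genotype libraries 1 and 3 were the highest. Eln fell by 1.43 on the log2 scale (SE 0.31, limma adjusted p = 0.00889), with means of 374 ± 134 FPKM in knockouts and 1012 ± 375 FPKM in controls, and the call was kept in all 21 alternatives (log2 differences from -1.64 to -1.17). By mean level Eln had rank 169 of all genes in knockouts and rank 49 in controls. It made up 16.1% to 27.8% of the summed FPKM of the 10 genes in knockouts, against 28.4% to 45.5% in controls. The sum of the other 9 was 1228 ± 121 FPKM in knockouts and 1629.7 ± 123 FPKM in controls.

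Fibulins tether tropoelastin to microfibrils and to the crosslinking enzymes. Efemp2 (fibulin-4, which recruits lysyl oxidase; chromosome 19, 5473954 to 5482517, plus strand) had 75.3, 75.4, 86.7 and 76.6 FPKM in knockouts 1 to 4, against 87.3, 87.1, 102 and 89.8 FPKM in controls 1 to 4. Knockout 3 came close to the lowest control, and the groups did not overlap. Efemp2 fell by 0.22 (SE 0.07, limma adjusted p = 0.0478), a call that was lost in 13 of 21 alternatives, among them leaving out any library other than knockout 3 (-0.27 to -0.17 with each of the 8 left out in turn). Its exons overlap those of Mus81 on the other strand. The strand setting of the quantification is not given in the sources used here, so for each gene with such an overlap reads of both genes cannot be told apart.

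Fbln5 (fibulin-5, an organiser of fibre assembly that binds elastin and integrins; chromosome 12, 101746565 to 101819055, minus strand) had 151, 111, 162 and 123 FPKM in knockouts 1 to 4, against 133, 87.2, 151 and 103 FPKM in controls 1 to 4. The groups overlapped, and 1 knockout lay above all controls. The log2 difference of 0.22 (SE 0.18, limma adjusted p = 0.400) did not pass. It was called as higher in 1 of 21 alternatives, the replicate block over library numbers (limma adjusted p = 0.0314). The ratio of Eln to Fbln5 in FPKM was 2.67 ± 0.522 in knockouts and 8.34 ± 1.22 in controls, without overlap (2.06 to 3.32 in knockouts, 7.05 to 9.95 in controls).

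Lox and Loxl1 encode copper-dependent enzymes that oxidise lysines, Lox those of both elastin and collagen. Lox (chromosome 18, 52516067 to 52529867, minus strand; exons of AC161119.1 overlap it on the other strand) had 65.1, 24.5, 57.0 and 26.6 FPKM in knockouts 1 to 4, against 88.3, 53.5, 87.3 and 52.2 FPKM in controls 1 to 4. Knockouts 2 and 4 lay below all controls, and knockouts 1 and 3 lay between the even-numbered and the odd-numbered controls. Over all 8 libraries the log2 difference of -0.77 (SE 0.34, limma adjusted p = 0.118) did not pass. By limma it was called as lower within the odd-numbered libraries alone (-0.52, adjusted p = 0.0157), within the even-numbered libraries alone (-1.02, adjusted p = 0.00412) and with library number, odd or even, as a further term (-0.77, adjusted p = 7.84e-04), and its adjusted p ran from 7.84e-04 to 0.260 over the 21 alternatives.

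Loxl1 (chromosome 9, 58287738 to 58313186, minus strand), whose product is known for elastin crosslinking, had 151, 138, 159 and 135 FPKM in knockouts 1 to 4, against 158, 150.1, 184 and 169 FPKM in controls 1 to 4. The groups overlapped, and 2 knockouts lay below all controls. The log2 difference of -0.18 (SE 0.08, limma adjusted p = 0.126) did not pass, nor did it in any of the 21 alternatives. The ratio of Lox to Loxl1 in FPKM was 0.291 ± 0.124 in knockouts and 0.425 ± 0.114 in controls, with overlap.

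Fibrillin-1, encoded by Fbn1, polymerises into the microfibrils on which elastin is deposited (chromosome 2, 125300594 to 125507993, minus strand; exons of Gm9913 overlap it on the other strand). Fbn1 had 34.3, 34.9, 37.6 and 34.9 FPKM in knockouts 1 to 4, against 49.4, 49.97, 59.2 and 57.7 FPKM in controls 1 to 4. The knockouts were tightly grouped, with an SD of 1.47 FPKM, and all lay below the controls. Fbn1, whose promoter is shown above, fell by 0.59 (SE 0.07, limma adjusted p = 5.57e-04), and the call was kept in all 21 alternatives (-0.63 to -0.49).

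Mfap2 and Mfap5 (MAGP-1 and MAGP-2) are small glycoproteins that bind fibrillin microfibrils. Mfap5 (chromosome 6, 122505845 to 122529290, plus strand) had 72.8, 81.1, 66.4 and 74.5 FPKM in knockouts 1 to 4, against 192, 144, 232 and 142 FPKM in controls 1 to 4. The highest knockout was well below the lowest control, and controls 1 and 3 stood above controls 2 and 4, while knockouts 1 and 3 lay below knockouts 2 and 4. Mfap5 fell by 1.23 (SE 0.15, limma adjusted p = 5.82e-04), and the call was kept in all 21 alternatives (-1.59 to -0.87).

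Mfap2 (chromosome 4, 141010418 to 141015984, plus strand) was the least abundant of the 10 in both groups. It had 14.3, 11.7, 19.5 and 8.87 FPKM in knockouts 1 to 4, against 7.38, 10.7, 8.25 and 8.06 FPKM in controls 1 to 4. Of the knockouts 3 lay above all controls, and knockout 4 lay among them. The log2 difference of 0.56 (SE 0.21, limma adjusted p = 0.0670) did not pass, and it was called as higher without knockout 4 (0.74), within the odd-numbered libraries alone (1.01) and with sum scaling (0.64). The ratio of Mfap5 to Mfap2 in FPKM was 5.96 ± 2.18 in knockouts and 21.3 ± 6.89 in controls, without overlap.

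Mfap4, a glycoprotein with a fibrinogen-like domain that binds elastin and microfibrils (chromosome 11, 61485431 to 61488900, plus strand), had 576, 655, 738 and 572 FPKM in knockouts 1 to 4, against 849.7, 879.8, 894 and 821 FPKM in controls 1 to 4. All knockouts lay below all controls. Mfap4 fell by 0.45 (SE 0.09, limma adjusted p = 0.00482). With quantile normalization (-0.08) and in odd numbers alone (-0.42) the call was lost, and exons of Mapk7 overlap it on the other strand.

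Emilin1, a glycoprotein at the interface of elastin and microfibrils (chromosome 5, 30913402 to 30921277, plus strand), had 70.9, 60.7, 71.6 and 59.3 FPKM in knockouts 1 to 4, against 68.0, 85.8, 83.5 and 92.1 FPKM in controls 1 to 4. Control 1 lay below knockouts 1 and 3, so the groups overlapped. Emilin1 fell by 0.32 (SE 0.11, limma adjusted p = 0.0458), and the call was lost in 12 of 21 alternatives, among them leaving out knockout 1, 2 or 4 or control 2, 3 or 4 (-0.41 to -0.26 with each of the 8 left out in turn). Within the odd-numbered libraries alone the difference was only -0.08 (limma adjusted p = 0.632). Within the even-numbered libraries alone it was -0.56 (limma adjusted p = 0.00875).

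**Figure D2:**
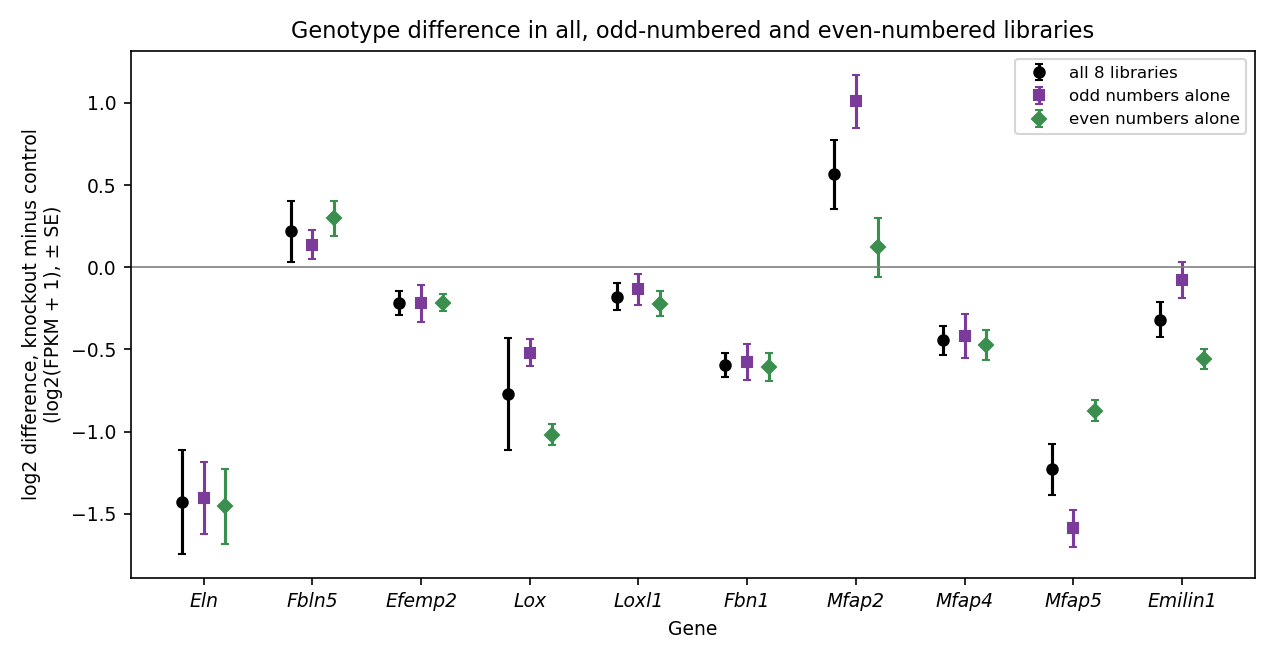
Log2 difference, knockout minus control, of each gene over all 8 libraries (black circles), odd-numbered libraries alone (purple squares) and even-numbered libraries alone (green diamonds), with bars of ± 1 SE from limma. For Eln the odd and even values, -1.40 and -1.46, lie together, while those of Lox, Mfap2, Mfap5 and Emilin1 lie apart.

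By mean level the 10 genes ran in knockouts from Mfap4 through Eln, Loxl1, Fbln5, Efemp2, Mfap5, Emilin1, Lox and Fbn1 down to Mfap2. In controls they ran from Eln through Mfap4, Mfap5, Loxl1, Fbln5, Efemp2, Emilin1, Lox and Fbn1 down to Mfap2. In knockouts the libraries did not overlap between Mfap4 and Eln, Eln and Loxl1, Fbln5 and Efemp2, or Fbn1 and Mfap2, and those of the other neighbours did. In controls they did not overlap between Mfap4 and Mfap5 or between Fbn1 and Mfap2, and those of the other neighbours did, Eln and Mfap4 among them.

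Profiles over the 8 libraries were compared by the root mean square difference of log2(FPKM + 1) after centring each gene, a description over 8 libraries that share the genotype difference. Nearest to Eln among genes outside the list were H2-Q8 (0.246), Nrep (0.295), Col3a1 (0.302), Wdr95 (0.324) and AW112010 (0.350). Col3a1, a fibrillar collagen gene, averaged 167 ± 21.3 FPKM in knockouts and 400.3 ± 80.8 FPKM in controls. Within the list Lox (0.437) and Mfap5 (0.441) came closest to Eln. Nearest to Fbn1 were Phldb1 (0.0326), Adamts2 (0.0642), Itih3 (0.0672), Podn (0.0681) and Ntn1 (0.0691).

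Averaged over the genotypes, libraries 1 and 3 differed from libraries 2 and 4 in 3 of the 10 genes. Beside genotype in the limma fit, Lox was higher in odd than in even numbers by 0.97 (SE 0.10, adjusted p = 0.00436), Eln by 0.80 (SE 0.17, adjusted p = 0.0280) and Fbln5 by 0.50 (SE 0.08, adjusted p = 0.0131). Among all tested genes 9.11% were called, 3.73% as higher in odd numbers and 5.38% as lower. In these 3 genes both odd-numbered libraries lay above both even-numbered ones in each genotype, as in 9.72% of all tested genes. The mean of Lox in odd numbers was 2.39 times that in even numbers among knockouts and 1.66 times among controls. For Eln it was 1.77 times among knockouts and 1.71 times among controls, and for Fbln5 1.34 times among knockouts and 1.49 times among controls. The other 7 genes had differences from 0.005 (Emilin1) to 0.22 (Mfap2) and did not pass. This term averages the genotypes, so splits in opposite directions cancel. The mean in odd numbers over that in even numbers was 1.19 among knockouts and 0.852 among controls for Emilin1. It was 1.65 and 0.835 for Mfap2, and 0.895 and 1.48 for Mfap5. For Efemp2, Fbn1, Mfap4 and Loxl1 it was 1.01 to 1.14 in both genotypes. The Lox call was kept with each library left out; the Eln call was lost without any 1 knockout and without control 2 or 3 (0.70 to 0.91 over the 8), and the Fbln5 call without knockout 2 (0.48). The labels give no meaning to odd and even numbers.

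Markers of other cell types moved with library number and with genotype. In odd-numbered libraries 4 of 9 adventitial fibroblast and 5 of 7 macrophage markers were higher and 0 lower, and of 9 smooth muscle and 8 endothelial markers 0 were higher and 2 each lower. Of all tested genes 3.73% were called as higher in odd numbers and 5.38% as lower. The adventitial fibroblast markers summed to 552 to 680.5 FPKM in odd-numbered and 493 to 508 FPKM in even-numbered knockouts, and to 884 to 1011 FPKM in odd-numbered and 671 to 733 FPKM in even-numbered controls. The smooth muscle markers summed to 11475 to 12257 FPKM in odd-numbered and 14268 to 15463 FPKM in even-numbered knockouts, and to 17894 to 18115 FPKM in odd-numbered and 17620.1 to 17731 FPKM in even-numbered controls. Between genotypes 6 of 9 smooth muscle, 4 of 9 adventitial fibroblast, 5 of 8 endothelial and 0 of 7 macrophage markers were lower in the knockout, and 0 of these were higher. Of all tested genes 15% were called as lower and 17.1% as higher. Endothelial markers summed to 122 to 124 FPKM in odd-numbered and 181 to 189 FPKM in even-numbered knockouts, and to 219.5 to 268 FPKM in odd-numbered and 293 to 297 FPKM in even-numbered controls. Macrophage markers summed to 176 to 239 FPKM in knockouts and 209 to 293 FPKM in controls. None of the markers in the table for these 4 types was at 0 in all libraries. Their part in the elastic fibre differences was not tested.

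**Figure D3:**
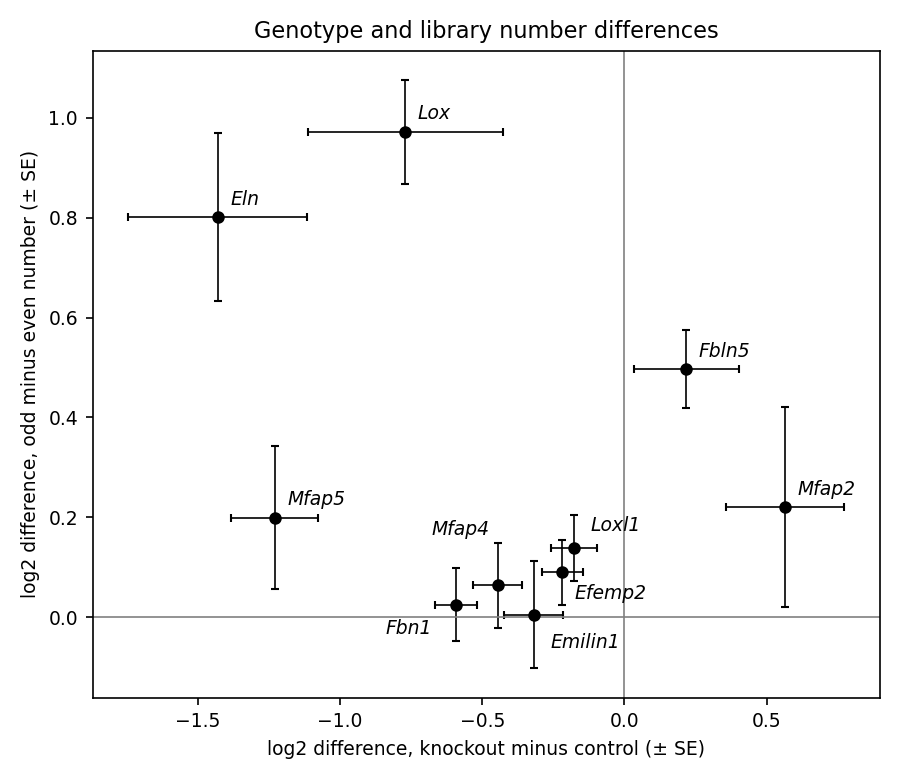
Log2 difference between genotypes (knockout minus control, horizontal) and between library numbers (odd minus even, vertical) of the 10 genes, with bars of ± 1 SE from limma. Lox, Eln and Fbln5 stand at 0.97, 0.80 and 0.50 on the vertical axis, and the other 7 at 0.22 or below.

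The genotype difference was also taken within library numbers, with 2 libraries against 2. In odd numbers Eln, Fbn1, Mfap5 and Lox were called as lower and Mfap2 as higher, against 25.6% of all tested genes, 12% lower and 13.6% higher. In even numbers Eln, Efemp2, Fbn1, Mfap4, Mfap5, Emilin1 and Lox were called as lower and 0 as higher, against 25.6% of all tested genes, 12.3% lower and 13.3% higher. A limma test of the interaction called 0 of the 10, against 1.62% of all tested genes, and 4 had an unadjusted p under 0.05, as did 16.6% of all tested genes. These were Mfap5 (odd minus even genotype difference -0.71, SE 0.14, adjusted p = 0.0609), Lox (0.50, SE 0.11, adjusted p = 0.0795), Emilin1 (0.48, SE 0.14, adjusted p = 0.145) and Mfap2 (0.89, SE 0.27, adjusted p = 0.159). For Eln the interaction was 0.05 (SE 0.35).

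Other genes of the fibre were read from the same fit. Of 20 further elastic fibre and microfibril genes 18 were tested, of which 11 fell, 1 rose and 6 did not pass, with a median log2 difference of -0.53. Over all tested genes 15% were called as lower and 17.1% as higher, with a median of 0.01. Loxl2, of the lysyl oxidase family, fell by 1.38 (SE 0.11), with 8.64 ± 0.987 FPKM in knockouts and 24.1 ± 3.40 FPKM in controls. Adamtsl4, an ADAMTS-like protein that binds fibrillin-1, averaged 5.65 ± 0.454 FPKM in knockouts and 14.5 ± 2.47 FPKM in controls (log2 difference -1.21). Ltbp2, a latent TGF-beta binding protein family member, averaged 13.2 ± 4.08 FPKM in knockouts and 29.7 ± 1.44 FPKM in controls (log2 difference -1.15). The 1 gene that rose was Adamtsl5, another ADAMTS-like protein, with 79.5 ± 4.44 FPKM in knockouts and 46.0 ± 2.85 FPKM in controls (log2 difference 0.78).

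The other members of the Ltbp family also fell, and they were named after their values were seen, as were Fbln2 and Loxl3. Ltbp4, which is needed for elastic fibre assembly, had 194 ± 15.3 FPKM in knockouts and 345 ± 12.9 FPKM in controls (log2 difference -0.83). The log2 differences were -0.72 for Ltbp1, -0.39 for Ltbp3, -0.69 for the fibulin gene Fbln2 and -0.78 for the lysyl oxidase family gene Loxl3. Of the same families Fbln1 (-0.04), Efemp1 (fibulin-3, -0.04) and Loxl4 (0.24) did not pass. In odd numbers alone the Ltbp3 call (-0.32) and the Fbln2 call (-0.65) were lost.

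Of 11 genes of lysyl oxidase maturation and copper supply 10 were tested, of which 4 fell, 3 rose and 3 did not pass (median -0.20). The shares over all tested genes were 15% lower and 17.1% higher. Postn encodes periostin, a matrix protein that promotes lysyl oxidase activation, and averaged 455 ± 139 FPKM in knockouts and 955 ± 61.8 FPKM in controls (log2 difference -1.12, limma adjusted p = 0.00295). Fn1 (fibronectin) and Adamts2 (a procollagen protease) each fell by 0.52. The copper transporter genes Atp7a, whose product loads copper into secreted enzymes, and Slc31a1, whose product takes copper up, each rose by 0.36, and Adamts14, another procollagen protease gene, rose by 0.37. The Atp7a and Slc31a1 calls were lost within the even-numbered libraries alone (0.29 each). The Fn1 call was lost in 8 of 21 alternatives, among them leaving out knockout 1, 2 or 4 or control 2, 3 or 4 (-0.64 to -0.45), and the Adamts14 call in 9 of 20, among them leaving out knockout 2, 3 or 4 or control 1, 2 or 3 (0.28 to 0.44).

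Of 12 elastin-degrading protease genes 8 were tested, of which 1 rose, 0 fell and 7 did not pass (median 0.14). The shares over all tested genes were 17.1% higher and 15% lower. The gene that rose was Ctsl (cathepsin L), with 227 ± 7.65 FPKM in knockouts and 173 ± 10.4 FPKM in controls (log2 difference 0.40, limma adjusted p = 0.00121). Mmp12, macrophage elastase, stood under the filter at 0.783 ± 0.318 FPKM in knockouts and 0.547 ± 0.0894 FPKM in controls. Mmp2, gelatinase A, was named after its values were seen, with 74.7, 27.1, 74.6 and 28.0 FPKM in knockouts 1 to 4, against 33.5, 33.1, 40.7 and 34.7 FPKM in controls 1 to 4. Knockouts 1 and 3 lay above all controls and knockouts 2 and 4 below them. The log2 difference of Mmp2 over all 8 libraries was 0.35 (limma adjusted p = 0.463), and it was called as higher within the odd numbers (0.996) and as lower within the even numbers (-0.29).

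Of 9 inhibitor genes of these proteases 6 were tested, of which 4 rose, 0 fell and 2 did not pass (median 0.35). The shares over all tested genes were 17.1% higher and 15% lower. Timp4, a tissue inhibitor of metalloproteases, averaged 22.03 ± 7.38 FPKM in knockouts and 7.02 ± 1.83 FPKM in controls (log2 difference 1.50). Timp2, of the same family, averaged 458 ± 67.8 FPKM in knockouts and 306 ± 17.9 FPKM in controls (log2 difference 0.57). Cst3 (cystatin C, an inhibitor of cysteine cathepsins) averaged 2706 ± 581 FPKM in knockouts and 1948 ± 135 FPKM in controls (log2 difference 0.45). The Cst3 call was lost in 9 of 21 alternatives, among them leaving out knockout 1 or 3 or any 1 control (0.34 to 0.55). The fourth was Timp3 (0.26), named after its values were seen, whose call did not hold in odd numbers alone (0.18).

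A list of 12 genes for receptors of elastic fibres and elastin peptides included Mfge8, whose product is secreted. Of the 12 genes 5 fell, 5 rose and 2 did not pass (median -0.14). The shares over all tested genes were 15% lower and 17.1% higher. The integrin subunit genes Itga5 (log2 difference -1.24) and Itgb3 (-0.87) fell, as did Mfge8 (-0.52), encoding the secreted glycoprotein lactadherin. The Mfge8 call was lost with quantile normalization (-0.22). Lgals3 (galectin-3) rose by 1.27, with 56.4 ± 15.9 FPKM in knockouts and 22.7 ± 6.03 FPKM in controls. Neu1 (0.59) and Ctsa (0.51), lysosomal genes whose products are also part of the elastin receptor complex, rose. Itgb5, a partner of the integrin alpha v chain, had 383 ± 34.3 FPKM in knockouts and 275 ± 24.0 FPKM in controls (log2 difference 0.48) and was named after its values were seen.

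**Figure D4:**
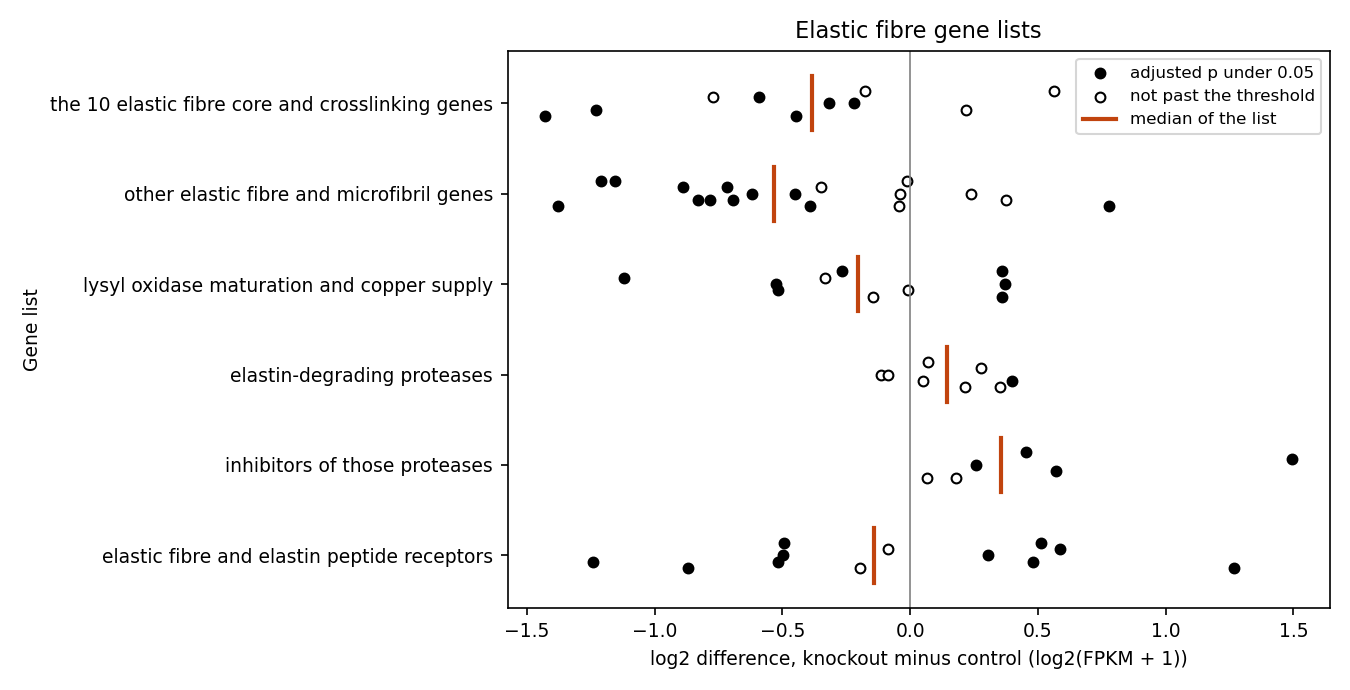
Log2 difference, knockout minus control, of the 10 elastic fibre core and crosslinking genes and of the tested genes of 5 further lists. Filled points passed an adjusted p of 0.05 in limma, open points did not, and the orange bar is the median of each list, which ran from -0.53 in the other elastic fibre and microfibril genes to 0.35 in the protease inhibitors.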

How the data were processed

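RNA of thoracic aortas was selected for polyA and sequenced as 8 libraries, per the labels' protocols. The authors deposited FPKM, 1 column per library, for 23993 gene symbols. Per the submitters' processing notes the tools were TopHat2, Cufflinks and Cuffdiff, with mm10 as the build, and no version is named. How strand was handled, which annotation was counted and how libraries were scaled is not given in the sources used here. The deposited FPKM were transformed to log2(FPKM + 1), on which low genes show less than their true change. A gene was kept where it averaged 1 FPKM or more across all 8 libraries, which left 12107. The model was fitted with limma 3.58.1 in R 4.3.3, using eBayes with a trend and two-sided tests; genotype was the only term, and p-values were adjusted by Benjamini-Hochberg over all of them. Separate fits added odd or even library number and its interaction with genotype. Only the genotype fit was tested on simulated data, in which libraries varied independently, without a difference between odd and even numbers. Without counts, no counting error can be given, and reads of overlapping genes cannot be separated.

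The members, lists and tests were chosen with earlier results of these data known. Of each further list the 3 called genes of largest difference in each direction were named, and others are marked as named after their values were seen. Coordinates are those of GENCODE M21 (GRCm38, mm10). Alternatives covered the pseudocount, the filter, scaling, library weights, the variance trend, the replicate block, library number and each library left out. The marker genes Adgre1 and Hbb-bt were not analysed here. In the knockout 0 of 6 fat cell, 2 of 7 striated muscle, 3 of 4 Schwann cell and neuron and 0 of 4 red blood cell markers tested were lower, and 1 striated muscle marker was higher. Of all tested genes 15% were called as lower and 17.1% as higher. Some markers were high in single libraries. Control 4 had 65.0 FPKM of Acta1 and 52.7 of Tnnt3, against at most 0.722 and 3.41 elsewhere. Myh6 had 25.6 and 17.0 FPKM in knockouts 1 and 4, against at most 1.58 elsewhere. Adipoq had 44.0 FPKM in control 1, against 4.87 to 20.2 elsewhere. Their part in the elastic fibre values was not tested.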

Additional observations from a re-analysis of the deposited data

Results flagged for a closer look

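Groups of 4 libraries were examined for a library far from the other 3 in 78 combinations of gene and group, of which chance flags about 1 in 20, and 2 stood out. Efemp2 had 86.7 FPKM in knockout 3, against 75.3 to 76.6 FPKM in the other 3 knockouts. Ctsa had 92.8 FPKM in knockout 4, against 100.1 to 101 FPKM in the other 3 knockouts.

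The genotype difference itself differed between odd-numbered and even-numbered libraries for 3 of the 38 genes examined, by the limma interaction test, which called 1.62% of all tested genes. Mmp2 was named after its split by library number was seen, so its test is a description. The log2 difference was larger in odd numbers by 1.29 for Mmp2 (SE 0.13, adjusted p = 0.00769), by 1.30 for Lgals3 (SE 0.20, adjusted p = 0.0310) and by 0.68 for Cst3 (SE 0.11, adjusted p = 0.0354). All 4 knockouts lay above all 4 controls for Lgals3 and for Cst3.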

How the results depend on the processing

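The counts of genes called over the whole table, and those summed over the further lists, stayed within 1.5 times in each of the 21 alternatives. Counts within a single list did not always do so. Of the elastin-degrading protease genes 0 were called as lower over all libraries, but Mmp2 was called as lower in the even-numbered libraries alone. The 6 members called as lower became 3 with quantile normalization and 4 to 6 with 1 library left out. The Efemp2 and Emilin1 calls were also lost without the filter, with sum scaling without small RNA rows and without the variance trend. With library weights the Efemp2 call was lost, and with odd or even library number as a further term Lox was called as lower too. The 0 members called as higher became 1 with sum scaling without small RNA rows, which moved the median of all genes to 0.08, 1 with the replicate block, 1 in the odd-numbered libraries alone, and 0 to 1 with 1 library left out. The 3 members called higher in odd numbers became 1 to 3 with 1 library left out, an alternative chosen after seeing the data; without the filter on low values the Eln call there was lost too.

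Deviations of same-numbered libraries from their group means correlated across genes at 0.0656 for number 1 and at 0.138, 0.135 and 0.173 for numbers 2, 3 and 4. Pairs of different numbers, both odd or both even, correlated at 0.0160 to 0.160. Pairs of an odd and an even number correlated at -0.193 to -0.0547. Not every library correlated best with its own number, and the labels do not tie same-numbered libraries together. With the replicate block Lox (limma adjusted p = 0.00531) and Fbln5 (adjusted p = 0.0314) were called and Emilin1 (adjusted p = 0.0795) was not.

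Directions reversed for Mmp2 in the even-numbered libraries alone (-0.29) and for the Efemp2 interaction with quantile normalization (0.0194). With 1 library left out, the odd minus even difference ran from -0.0237 to 0.0789 for Fbn1, from -0.0129 to 0.130 for Mfap4 and from -0.0496 to 0.111 for Emilin1, reversing without knockout 3, control 2 or control 3 for Fbn1, without knockout 3 for Mfap4, and without any 1 knockout or control 3 for Emilin1. The causes were not tested. The absolute depth is unknown, so the precision of low genes cannot be given.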
